A study of Mus musculus with 10 samples.

Results

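The circadian clock genes described here are Clock, Npas2, Per1, Per2, Per3, Cry1, Cry2, Nr1d1, Nr1d2 and Dbp. They were taken by gene symbol, as core genes of the molecular clock, and make up 10 of the 54532 genes in the deposited table. All 10 were found once in the table and all 10 passed the filter on low counts.

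Bulk RNA sequencing was done on mouse kidneys after unilateral ureteral obstruction (UUO), a model in which a tied ureter leads to tubular injury, inflammation and fibrosis. The mice were male, wild type and on the C57BL/6 background, 8 weeks old when the left ureter was ligated, and the kidneys were taken on day 14. A group of 5 received PBS and a group of 5 received dimethyl malonate (DMM), an inhibitor of succinate dehydrogenase, at 40 mg/kg by intraperitoneal injection every other day. The libraries are named PBS 1 to PBS 5 and DMM 1 to DMM 5. Unobstructed kidneys were not analysed here. The time of day at which each mouse was killed is not given in the sources used here, so time of day and treatment cannot be told apart in any clock gene.

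The molecular clock is a feedback loop in which CLOCK or its paralog NPAS2 pairs with BMAL1, the product of Arntl, and activates genes through E-box sequences. The PER and CRY proteins are made from such genes and repress the activators, while the nuclear receptors REV-ERBα and REV-ERBβ, made from Nr1d1 and Nr1d2, repress Arntl. Dbp is an output factor that binds D-box sequences, and in the kidney the clock is known for daily rhythms of salt handling, urine formation and filtration.

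The libraries held 16457495 to 18078777 counts in the PBS group (median 17825223) and 15722527 to 19475833 in the DMM group (median 16794390). At this depth the clock gene with the fewest counts, Dbp, had 70 to 408 counts per library, and the one with the most, Clock, had 1368 to 4977. Values per library are given as CPM, the count scaled to library size with TMM factors, group values as mean ± SD with n = 5 unless another n is stated, and fold changes as log2 of DMM over PBS with the standard error (SE). A gene was called when the adjusted p of edgeR's quasi-likelihood test, taken over all tested genes, was under 0.05 and the fold change was above 1.5.

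3 libraries stood apart. The deposited group means gave a weight of 0 to PBS 3 and DMM 1. Both had also stood apart in an earlier analysis of these data. Every comparison was therefore made over all 10 libraries and again over the 8 without those. The 8 were thus chosen with earlier results known, and their p-values and calls do not allow for that choice. DMM 1 was also at the PBS level for the 15 interferon response genes, with a mean log2 level relative to the PBS mean of -0.07 where DMM 2 to DMM 5 lay between -3.22 and -2.72. DMM 4 differed in its composition. With all tested genes cut into quintiles, its median deviation from the other libraries on the log2 scale was -0.60 in the quintile of the shortest genes and 0.53 in that of the longest. It was 0.54 in the quintile of lowest GC content and -0.69 in that of highest. No other library deviated by more than 0.062 in any of these quintiles. DMM 4 also had 20029 genes with a count, against 22898 to 24083 in the others. Clock lies in the quintile of the longest genes and in that of lowest GC, Per3 in the former and Nr1d2 in the latter, while Per1, Cry2, Nr1d1 and Dbp lie in the quintile of highest GC. Values of these genes are therefore given with and without DMM 4 where they differ.

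Over all 10 libraries no clock gene passed the test. edgeR called 0 of the 10 clock genes, and 0% of the 16505 tested genes were called. DESeq2 called 0 of the 10, against 0.274% of all genes it tested. At an unadjusted edgeR p under 0.05, Per2, Nr1d1 and Nr1d2 were higher in DMM and none was lower, which is 3 of 10 against 10.9% of all tested genes. The groups did not overlap in 0 of 10 clock genes, against 1.95% of all. Over the 8 libraries edgeR again called 0 of 10, where 6.3% of 16550 tested genes were called. At an unadjusted p under 0.05 over these 8, the same 3 genes were higher and Cry1 was lower, which is 4 of 10 against 21.6% of all. The groups did not overlap in Cry1 and Nr1d2, 2 of 10, which is close to the 20.1% seen over all tested genes. 6 of the 10 fold changes were positive over 10 libraries, as were 8715 of the 16505 over all tested genes. The median log2 fold change of the 10 clock genes was 0.32, against 0.02 for all tested genes. The 8 libraries gave medians of 0.42 and 0.02.

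2 further comparisons, chosen after seeing the data, bear on DMM 4. With each library corrected for GC content and gene length, edgeR called 0 of the 10 clock genes over 10 libraries, where 0% of all genes were called. With the same correction over the 8 libraries it called Nr1d1, 1 of 10, against 8.93% of all genes. Over the 7 libraries without PBS 3, DMM 1 and DMM 4 it called Cry1 and Nr1d1, 2 of 10, against 14.3%. These counts are near the share called among all genes.

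**Figure D1:**
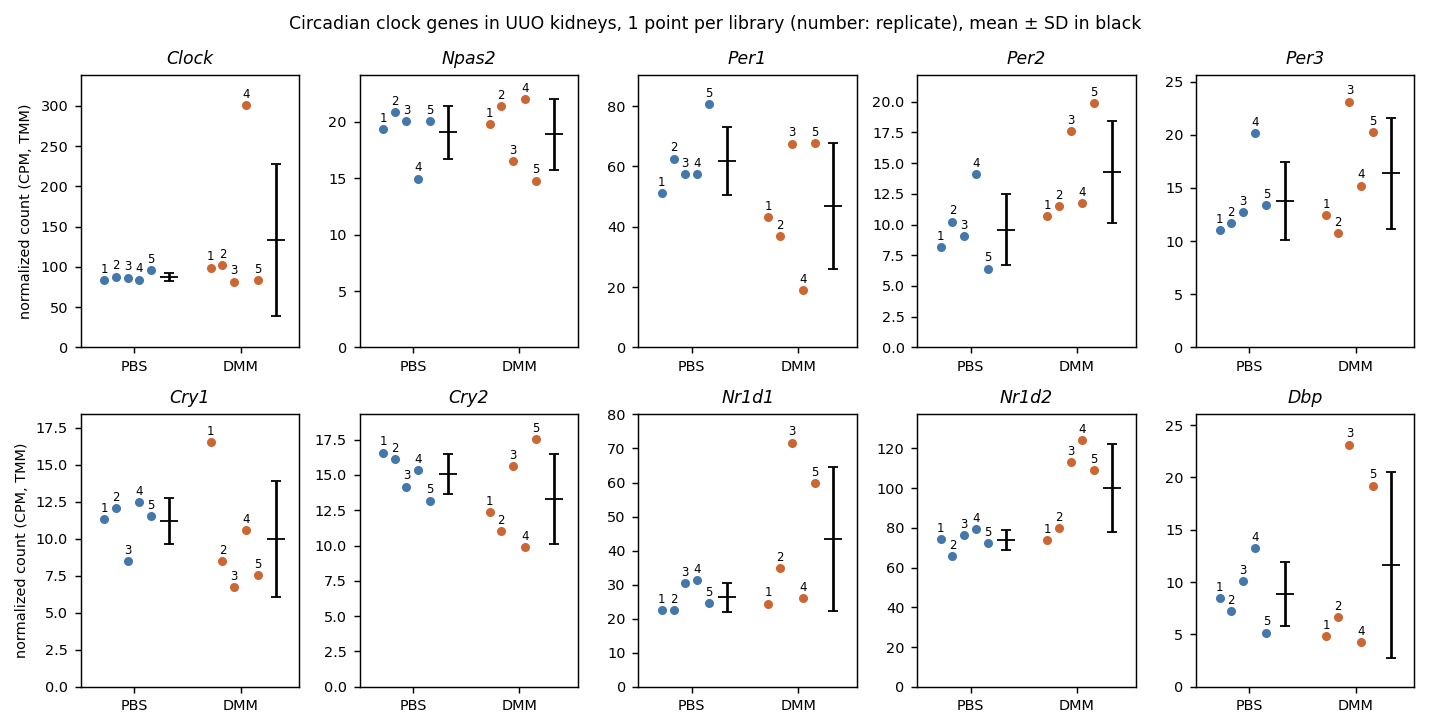
Normalized count (CPM, TMM scaling, y axis) of each of the 10 clock genes in the 5 PBS and 5 DMM libraries, with 1 point per library, the replicate number above it, and mean ± SD in black. DMM 3 and DMM 5 are the highest libraries for Nr1d1, Per2, Per3 and Dbp, and DMM 4 is apart for Clock at 301 CPM.

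Levels of the clock genes were ranked per length, in the deposited FPKM values, which are scaled to gene length and library size. The most abundant gene of each other list was taken by CPM, which is not scaled to length. Over the 10 libraries the mean FPKM was highest for Nr1d2, at 15.9 ± 3.74 (n = 10), and lowest for Per3, at 1.56 ± 0.463. In between, the order by mean FPKM was Nr1d1 at 11.2, Per1 at 9.59, Clock at 7.99, Npas2 at 3.93, Dbp at 3.40, Cry1 at 3.15, Cry2 at 2.23 and Per2 at 2.02. Clock was at 6.47 FPKM without DMM 4 and kept its place. The order differed between the groups by mean FPKM. Per1 was above Nr1d1 in the PBS group (10.9 and 8.47) and below it in the DMM group (8.27 and 14.02). By DMM means Clock, at 9.64, was above Per1 too, but this order rested on DMM 4. There Clock was at 21.6 FPKM and Per1 at 3.32. In DMM 1, DMM 3 and DMM 5 Per1 was above Clock. Cry1 was above Dbp and Cry2 above Per2 in the PBS group, and both were reversed in the DMM group. 3 neighbours in the order over 10 libraries differed by more than the SD of their log2 ratio over libraries. Nr1d2 was above Nr1d1 in 9 of 10 libraries, Clock above Npas2 in 10 of 10 and Per2 above Per3 in 9 of 10. The other 6 neighbouring pairs did not differ beyond their spread. Dbp, for example, was above Cry1 by mean but in only 4 of 10 libraries.

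Of the activators, Clock (ENSMUSG00000029238, mm10 chromosome 5, 76209868 to 76304792) encodes the basic helix-loop-helix partner of BMAL1. Clock was at 83.9, 87.9, 86.8, 84.1 and 95.8 CPM in PBS 1 to PBS 5 and at 99.0, 102, 81.6, 301 and 83.2 CPM in DMM 1 to DMM 5. DMM 4 was far above all others. DMM 1 and DMM 2 lay just above the PBS range and DMM 3 and DMM 5 just below it. The group values were 87.7 ± 4.86 and 133 ± 94.0 CPM. The log2 fold change was 0.60 (SE 0.34, edgeR adjusted p = 0.526), and it was 0.06 without DMM 4 and 0.22 with the GC and length correction. The large SD of the DMM group therefore came from DMM 4, without which the SD of log2 CPM was 0.168 against 0.784 with it. Clock was the least variable of the 10 genes in the PBS group, at an SD of 0.078, in percentile 14 of all tested genes.

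Npas2 (ENSMUSG00000026077, chromosome 1, 39193731 to 39363236) encodes the paralog that can take the place of CLOCK. It was at 19.3, 20.8, 20.1, 15.0 and 20.1 CPM in the PBS libraries and at 19.8, 21.4, 16.5, 22.0 and 14.8 CPM in the DMM libraries. DMM 5, PBS 4 and DMM 3 were the lowest, so the low libraries came from both groups. The means were 19.1 ± 2.35 and 18.9 ± 3.13 CPM, with a log2 fold change of -0.01 (SE 0.15, edgeR adjusted p = 0.978) that differed by less than the spread between libraries. Its sign was not stable, with values from -0.09 to 0.06 when each library was left out of the 10 and from -0.11 to 0.08 when each was left out of the 8.

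Arntl (ENSMUSG00000055116), the gene of their partner BMAL1, was among the 21 other clock genes. It was at 29.6, 31.6, 26.9, 25.3 and 28.2 CPM in the PBS libraries and at 34.3, 30.6, 16.6, 17.9 and 18.2 CPM in the DMM libraries. DMM 3, DMM 4 and DMM 5 lay below every PBS library, while DMM 1 lay above all of them. The log2 fold change of Arntl was -0.27 (SE 0.21, edgeR adjusted p = 0.613) over 10 libraries and -0.46 (SE 0.20, edgeR adjusted p = 0.232) over 8. It was -0.45 without DMM 1 alone and -0.17 without DMM 3 alone.

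Among the repressors, Per1 (ENSMUSG00000020893, chromosome 11, 69095217 to 69109960) is the period gene that also responds to glucocorticoids. Per1 was at 51.3, 62.6, 57.5, 57.4 and 80.7 CPM in PBS 1 to PBS 5 and at 43.1, 36.9, 67.6, 18.9 and 67.7 CPM in DMM 1 to DMM 5. DMM 4 was the lowest library and PBS 5 the highest, and DMM 3 and DMM 5 lay within the PBS range. The means were 61.9 ± 11.2 and 46.8 ± 21.0 CPM, with a log2 fold change of -0.40 (SE 0.30, edgeR adjusted p = 0.593), which was -0.20 without DMM 4.

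Per2 (ENSMUSG00000055866, chromosome 1, 91415982 to 91459324) encodes a partner of the CRY proteins in the repressor complex. Its values were 8.16, 10.2, 9.05, 14.1 and 6.41 CPM in the PBS libraries and 10.7, 11.5, 17.6, 11.7 and 19.9 CPM in the DMM libraries. Every DMM library was above 4 of the 5 PBS libraries, and PBS 4 lay between DMM 4 and DMM 3. Per2 averaged 9.59 ± 2.88 and 14.3 ± 4.18 CPM. Its log2 fold change was 0.57 (SE 0.25, unadjusted p = 0.0392, edgeR adjusted p = 0.436) over 10 libraries and 0.64 (SE 0.28, edgeR adjusted p = 0.231) over 8.

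Per3 (ENSMUSG00000028957, chromosome 4, 151003652 to 151044665), the remaining period gene, was at 11.02, 11.7, 12.7, 20.2 and 13.4 CPM in the PBS libraries. In the DMM libraries it was at 12.5, 10.8, 23.1, 15.2 and 20.2 CPM. DMM 3, DMM 5 and PBS 4 were the 3 high libraries of Per3, and the groups overlapped. The log2 fold change was 0.25 (SE 0.24, edgeR adjusted p = 0.686), and it was 0.09 without DMM 3, 0.16 without DMM 5, 0.37 without DMM 2 and 0.42 without PBS 4.

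Cry1 (ENSMUSG00000020038, chromosome 10, 85131700 to 85185064) encodes a cryptochrome, a strong repressor of CLOCK and BMAL1. Cry1 was at 11.3, 12.1, 8.49, 12.5 and 11.5 CPM in the PBS libraries and at 16.5, 8.51, 6.74, 10.6 and 7.54 CPM in the DMM libraries. The libraries PBS 3 and DMM 1 were the lowest and the highest of their groups, and leaving both out moved the log2 fold change of Cry1 more than that of any other of the 10 genes. With them the log2 fold change was -0.16 (SE 0.24, edgeR adjusted p = 0.794), and it was -0.42 without DMM 1 and -0.05 without DMM 3. Over the 8 libraries the means were 11.8 ± 0.508 and 8.34 ± 1.65 CPM (n = 4), every DMM library lay below every PBS library, and the log2 fold change was -0.51 (SE 0.17, unadjusted p = 0.0152, edgeR adjusted p = 0.117). Cry1 fell by 0.64 on the log2 scale over the 7 libraries that also lacked DMM 4 (edgeR adjusted p = 0.00523), while the correction for GC and length over the 8 gave -0.37 (edgeR adjusted p = 0.306).

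Cry2 (ENSMUSG00000068742, chromosome 2, 92403646 to 92434043), the other cryptochrome gene, was at 13.2 to 16.6 CPM in the PBS libraries and at 9.91 to 17.5 CPM in the DMM libraries. DMM 4 was its lowest library and DMM 5 its highest. The means were 15.1 ± 1.40 and 13.3 ± 3.19 CPM, and the log2 fold change of -0.18 (SE 0.17, edgeR adjusted p = 0.67) was within the spread. It was -0.09 without DMM 4, -0.11 without DMM 2 and -0.30 without DMM 5.

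The REV-ERB genes had the lowest unadjusted p-values of the 10. Nr1d1 (ENSMUSG00000020889, chromosome 11, 98767932 to 98775333) encodes REV-ERBα. It was at 22.5, 22.6, 30.4, 31.2 and 24.5 CPM in the PBS libraries and at 24.4, 34.9, 71.8, 26.0 and 59.8 CPM in the DMM libraries. DMM 3 and DMM 5 were far above the rest, DMM 2 was just above the PBS range, and DMM 1 and DMM 4 lay within it. With the GC and length correction DMM 4 lay above the PBS range of Nr1d1. Its log2 CPM was then 5.40, against 4.38 to 4.88 in the PBS libraries and 5.08 in DMM 2. The means were 26.2 ± 4.24 and 43.4 ± 21.2 CPM. Nr1d1 had a log2 fold change of 0.72 (SE 0.29, unadjusted p = 0.031, edgeR adjusted p = 0.422) over 10 libraries and of 0.93 (SE 0.30, unadjusted p = 0.0131, edgeR adjusted p = 0.108) over 8. It rose over the 8 libraries with the GC and length correction, by 1.11 (edgeR adjusted p = 0.012), and over the 7 libraries, by 1.14 (edgeR adjusted p = 0.00536). Leaving out DMM 3 alone gave a log2 fold change of 0.47, and leaving out DMM 4 alone one of 0.86.

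Nr1d2 (ENSMUSG00000021775, chromosome 14, 18204054 to 18239127) encodes REV-ERBβ. Its values were 74.5, 65.9, 76.5, 79.5 and 72.2 CPM in the PBS libraries and 73.7, 79.7, 113, 124 and 109 CPM in the DMM libraries. DMM 3, DMM 4 and DMM 5 were high, DMM 2 lay just above the highest PBS library, and DMM 1 lay within the PBS range. With the GC and length correction DMM 4 was less high, at a log2 CPM of 6.45. DMM 2 was then at 6.40 and the highest PBS library at 6.34. The means were 73.7 ± 5.12 and 99.9 ± 22.0 CPM. The log2 fold change of Nr1d2 was 0.44 (SE 0.15, unadjusted p = 0.0133, edgeR adjusted p = 0.385) over 10 libraries and 0.35 without DMM 4. Over 8 it was 0.54 (SE 0.15, unadjusted p = 0.00488, edgeR adjusted p = 0.0606), with means of 73.0 ± 5.64 and 106.5 ± 19.0 CPM (n = 4) and no overlap. The 8 libraries were also tested with a further library left out in turn, an alternative added after seeing the data. Nr1d2 passed when DMM 2 was left out, at 0.65 (edgeR adjusted p = 0.0194), the only call among the 10 clock genes there, where 5.61% of all genes were called. It had an edgeR adjusted p of 0.0192 without DMM 4, with a fold change below 1.5. In the other 6 sets its edgeR adjusted p was between 0.123 and 0.172.

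Dbp (ENSMUSG00000059824, chromosome 7, 45705088 to 45710203), the output gene, was the most variable of the 10. It was at 8.47, 7.24, 10.1, 13.3 and 5.18 CPM in the PBS libraries and at 4.81, 6.68, 23.1, 4.23 and 19.2 CPM in the DMM libraries. DMM 3 and DMM 5 were above every PBS library, while DMM 1 and DMM 4 were below every PBS library and DMM 2 lay within their range. With the GC and length correction DMM 4 lay within the PBS range of Dbp. Its log2 CPM was then 3.23, against 2.31 to 3.63 in the PBS libraries. The means were 8.84 ± 3.04 and 11.6 ± 8.88 CPM. The log2 fold change of Dbp was 0.39 (SE 0.48, edgeR adjusted p = 0.75), and it was -0.02 without DMM 3, 0.14 without DMM 5, 0.26 without PBS 5 and 0.61 without DMM 4. Over the 8 libraries the value for Dbp was 0.64 (SE 0.53, edgeR adjusted p = 0.532), with the GC and length correction over these 0.81 (edgeR adjusted p = 0.243), and over the 7 libraries 0.94 (edgeR adjusted p = 0.124). The SD of log2 CPM was 0.501 in the PBS group, percentile 88.7 of all tested genes, and 1.13 in the DMM group, percentile 94.8. Highest and lowest libraries were 2.56-fold apart in the PBS group and 5.47-fold apart in the DMM group.

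Over the 8 libraries the log2 fold changes of the clock genes not yet given were 0.69 for Clock (edgeR adjusted p = 0.369), -0.01 for Npas2 (0.978), -0.40 for Per1 (0.572), 0.30 for Per3 (0.576) and -0.18 for Cry2 (0.658). For Clock, the value over the 7 libraries without DMM 4 was 0.02, and for Per1 it was -0.13.

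The spread of the other genes gives a scale for these values. The median SD of log2 CPM over all tested genes was 0.178 in the PBS group and 0.402 in the DMM group, or 0.199 in the DMM group without DMM 4. Without DMM 4, the SD of Dbp in the DMM group was 1.103, at percentile 98.1. That of Nr1d1 was 0.711, of Cry1 0.575, of Per3 0.529, of Per1 0.448 and of Per2 0.442, all at or above percentile 80.2. Nr1d2, at 0.312, and Cry2, at 0.303, lay at percentiles 67.5 and 66.5. Npas2, at 0.242, and Clock, at 0.168, lay near the middle of all genes. These SDs are from 4 libraries and describe them alone.

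Some of the counts may include reads of neighbours. Nr1d1 overlaps Thra on the opposite strand (1097 to 1702 counts per library), and Dbp overlaps Sphk2 in the same way (403 to 906 counts). Per3 overlaps Camta1 on the same strand (299 to 612 counts), and Clock holds the pseudogene Ube2n-ps1 (25 to 63 counts). The strand setting of the counting is not given in the sources used here, so reads of opposite genes cannot be told apart where they overlap.

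Nr1d1, Dbp, Per2 and Per3, singled out after their values were seen, were high in the same libraries. Relative to the mean log2 CPM of the PBS group, DMM 3 was at 1.46 for Nr1d1, 1.44 for Dbp, 0.92 for Per2 and 0.77 for Per3. DMM 5 was at 1.20 for Nr1d1, 1.18 for Dbp, 1.09 for Per2 and 0.58 for Per3. Within the PBS group, PBS 4 was highest for all of these genes, at 0.65 for Dbp, 0.60 for Per2, 0.58 for Per3 and 0.26 for Nr1d1. Npas2 was low in the same libraries, at -0.20 in DMM 3, -0.35 in DMM 5 and -0.34 in PBS 4. Arntl was low in DMM 3, DMM 4 and DMM 5, at -0.77, -0.65 and -0.63. Nr1d2 was high in these libraries, at 0.617, 0.755 and 0.567, and PBS 4 was its highest PBS library, at 0.112.

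**Figure D2:**
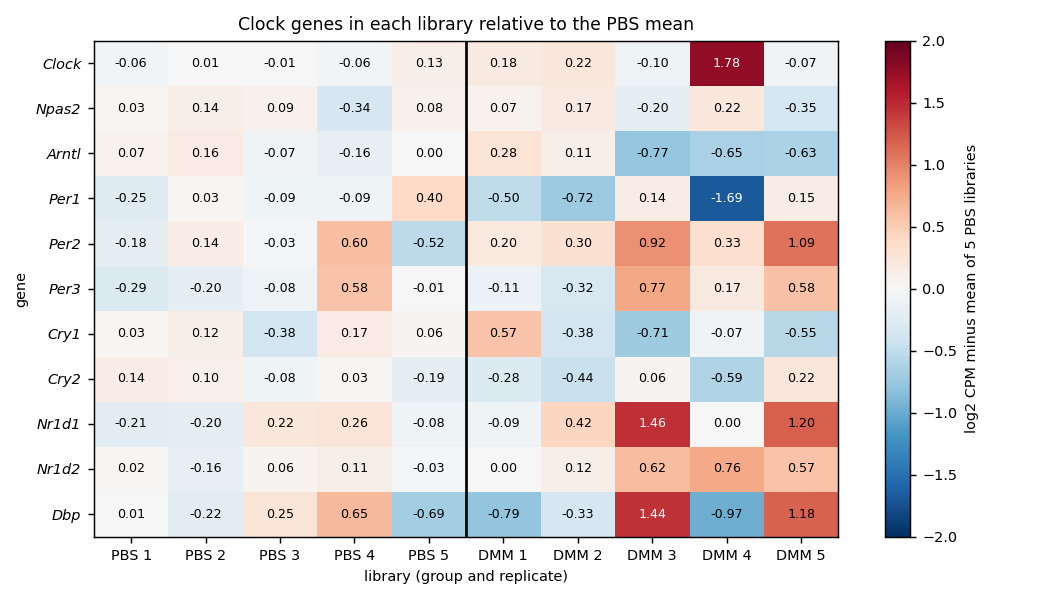
Log2 CPM of the 10 clock genes and Arntl (y axis) in each library (x axis, PBS left and DMM right of the line) minus the mean of the 5 PBS libraries, as color and number. DMM 3 and DMM 5 share high Nr1d1, Dbp, Per2 and Per3 with low Arntl and Npas2, and DMM 4 stands out for Clock (1.78) and Per1 (-1.69).

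Correlations of log2 CPM were computed for the 45 pairs of clock genes over the 10 libraries, each with a two-sided permutation test of 100000 resamples and adjustment over the 45 pairs. 9 pairs had an adjusted p under 0.05, 4 positive and 5 negative. Npas2 and Dbp were opposed, with r = -0.838 (permutation p = 0.00369, adjusted p = 0.0334) and rho = -0.733 (permutation p = 0.0202), and r was -0.850 without the 2 libraries farthest from the median of Npas2. Npas2 and Per3 were opposed as well, with r = -0.819 (permutation p = 0.00733, adjusted p = 0.0434), rho = -0.552 (permutation p = 0.104) and r = -0.702 without the 2 farthest libraries. Per2 and Nr1d1 went together, with r = 0.821 (permutation p = 0.00352, adjusted p = 0.0334), rho = 0.770 (permutation p = 0.0134) and r = 0.810 without the 2 farthest. Per2 and Per3 went together with r = 0.769 (permutation p = 0.00919, adjusted p = 0.0459), rho = 0.648 (permutation p = 0.0481) and r = 0.874 without the 2 farthest. Cry1 was opposed to Nr1d1, with r = -0.808 (permutation p = 0.00179, adjusted p = 0.0334), rho = -0.685 (permutation p = 0.0347) and r = -0.789 without the 2 farthest. Clock was opposed to Cry2, with r = -0.773 (permutation p = 8e-05, adjusted p = 0.0036), rho = -0.867 (permutation p = 0.00221) and r = -0.871 without the 2 farthest.

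In the remaining 3 pairs r fell below 0.5 in size without the 2 libraries farthest from the median of the gene named first. The 2 farthest libraries were chosen in this way for every pair, so the values without them depend on the order of the genes. Nr1d1 and Dbp had r = 0.834 (permutation p = 0.00371, adjusted p = 0.0334) and rho = 0.576 (permutation p = 0.0869), but r = 0.378 without those libraries. Centred on group means, this pair had r = 0.950 (exact permutation p within groups = 0.0025, adjusted p = 0.103). For Clock and Per1, r = -0.879 (permutation p = 0.00772, adjusted p = 0.0434) and rho = -0.612 (permutation p = 0.0677) came with r = -0.207 without them. Per1 and Cry2 had r = 0.785 (permutation p = 0.00581, adjusted p = 0.0434) and rho = 0.600 (permutation p = 0.0718), with r = 0.242 without them. Without DMM 4, Clock and Per1 had an adjusted p of 0.237 (exact permutation test, r = -0.536) and Per1 and Cry2 one of 0.175 (r = 0.586). By rank, Clock and Dbp passed with rho = -0.927 (permutation p = 0.00031, adjusted p = 0.0139) and Clock and Cry2 with an adjusted p of 0.0497.

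The number of correlated pairs depended on the libraries. All 9 pairs kept their sign with r of at least 0.5 in size when values were centred on the mean of their own group, and again over the 8 libraries. The 9 pairs were picked on these same values, so this is not a separate test of them. Clock with Per1 and Per1 with Cry2, however, had opposite signs in the 5 PBS and the 5 DMM libraries taken alone, where the other 7 pairs had the same sign in both. Centred or over 8, 0 of 45 pairs had an adjusted p under 0.05, with a smallest adjusted p of 0.103 (exact permutation within groups) and 0.0725 (exact permutation test over 8). Leaving out a single library gave 1 pair without PBS 2, PBS 3, DMM 3 or DMM 5, 2 without PBS 4 or DMM 1, 4 without PBS 1, 7 without DMM 2, 9 without PBS 5 and 17 without DMM 4. The correction for GC and length gave 13 pairs, but 4 of the 9 were not among them. These were Clock and Cry2 (adjusted permutation p = 0.11), Npas2 and Dbp (0.14), Cry1 and Nr1d1 (0.0912) and Per1 and Cry2 (0.169). Clock and Per1 still passed with this correction (adjusted permutation p = 0.0337). Nr1d1 and Nr1d2, not among the 9, passed with it too (r = 0.962, adjusted permutation p = 0.0009). Over the 10 libraries their r was 0.653 (adjusted permutation p = 0.0994). Without DMM 4 it was 0.976, with the smallest adjusted p of that set (0.00397, exact permutation test).

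**Figure D3:**
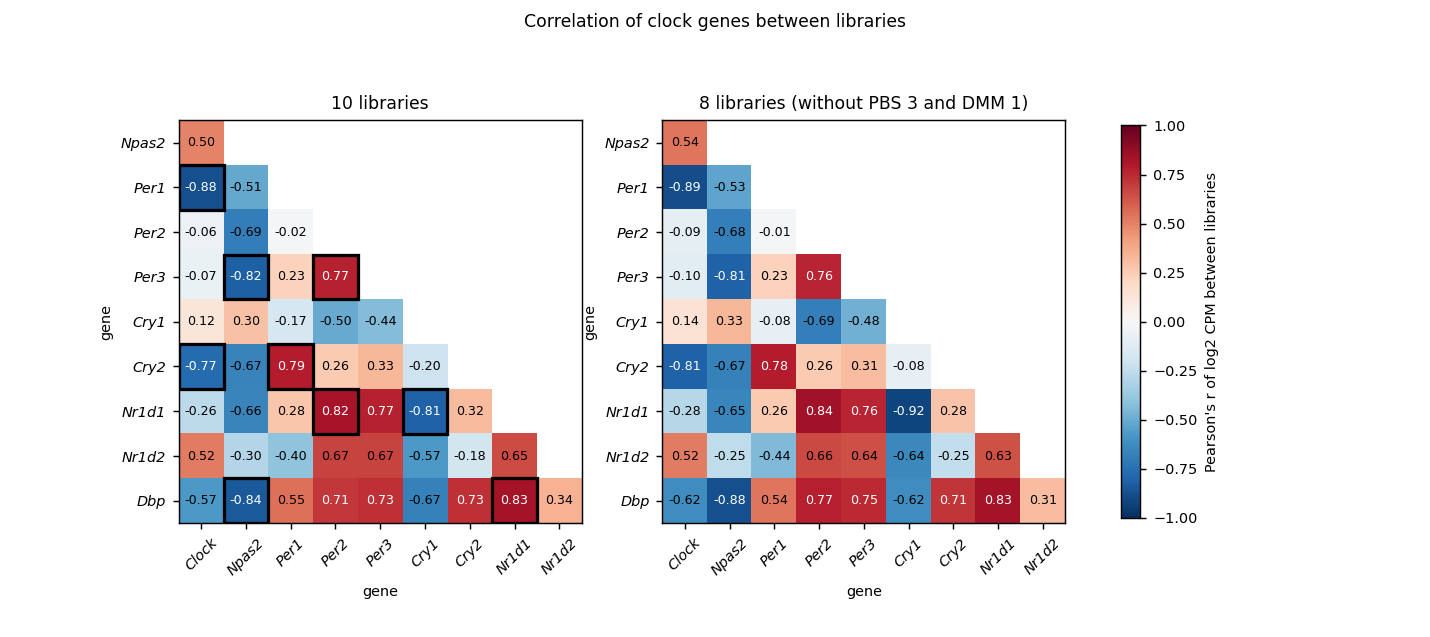
Pearson's r of log2 CPM for each pair of the 10 clock genes (both axes) over 10 libraries (left) and over the 8 without PBS 3 and DMM 1 (right), with the 9 pairs of adjusted p under 0.05 boxed. Npas2 was negative with Per2, Per3, Nr1d1 and Dbp in both panels, and those 4 genes were positive with each other.

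Outside the 10, the tested genes whose log2 CPM followed that of Dbp most closely over the 10 libraries included Gsr (r = 0.918), Rps27a (0.917), Sdr42e1 (0.915) and Slc1a3 (0.907). Those closest to Npas2 were Itpkb (r = 0.930), 9330136K24Rik (0.910), Pramef8 (0.899), Armt1 (0.886) and Mum1l1 (0.879). These are descriptions over the same 10 libraries, picked as the highest of all tested genes.

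Of the 21 other clock genes, 20 were tested, all but Rorb, and edgeR and DESeq2 each called 0 of them over 10 libraries. At an unadjusted p under 0.05, 2 were higher and 1 was lower, with 0.07 as the median of the log2 fold changes. In the 8 libraries 3 of 20 were called, where 6.3% of all tested genes were. The same 6.3% applies to the calls over 8 libraries of every list that follows, and counts at an unadjusted p under 0.05 stand against 10.9% of all tested genes over 10 libraries and 21.6% over 8. Hlf, a PAR bZIP factor of the same family as Dbp, rose by 1.35 (SE 0.22, edgeR adjusted p = 0.00952), and Tef, of that family too, rose by 0.72 (SE 0.19, edgeR adjusted p = 0.0496). Timeless, known for its part in DNA replication, fell by 0.86 (SE 0.17, edgeR adjusted p = 0.0198). Over 10 libraries these log2 fold changes were 0.73 (edgeR adjusted p = 0.513), 0.48 (edgeR adjusted p = 0.459) and -0.59 (edgeR adjusted p = 0.387). Hlf was at 33.7 CPM in PBS 3, against 9.47 to 15.5 CPM in the other PBS libraries, and at 11.8 CPM in DMM 1, against 24.1 to 39.0 CPM in the other DMM libraries.

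The activating receptor gene Rora, which acts on the same elements as the REV-ERBs, was at 71.7 ± 8.02 CPM in the PBS group and 120.1 ± 54.3 CPM in the DMM group (log2 fold change 0.74, edgeR adjusted p = 0.385). DMM 4 reached 215 CPM for Rora, and the other DMM libraries 79.4 to 114 CPM. For Rora the log2 fold change was 0.43 without DMM 4 and 0.44 with the GC and length correction. Gsk3b, a kinase that phosphorylates clock proteins, was at 378 CPM in DMM 4 and at 104 to 130.1 CPM in the other 9 libraries, with a log2 fold change of 0.64 (edgeR adjusted p = 0.497) that was 0.13 without DMM 4. The D-box repressor Nfil3 was at 26.6 ± 3.70 and 26.8 ± 7.74 CPM, with a log2 fold change of 0.01 (edgeR adjusted p = 0.984) whose sign turned in 8 alternatives. Bhlhe40 and Bhlhe41, which repress E-box genes, were at 198 ± 23.0 and 248 ± 24.1 CPM and at 4.22 ± 1.05 and 5.86 ± 1.46 CPM, and neither passed (edgeR adjusted p = 0.387 and 0.483). Ciart, a further repressor, was at 0.893 ± 0.431 and 1.22 ± 0.479 CPM (edgeR adjusted p = 0.637).

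Among 17 clock output genes, edgeR and DESeq2 each called 0 of the 16 tested over 10 libraries (2 higher and 1 lower at an unadjusted p under 0.05, median log2 fold change 0.19), and 2 higher over 8. Avpr2 was not tested. Slc9a3, the sodium-hydrogen exchanger of the proximal tubule, was at 34.6 ± 22.2 and 71.6 ± 42.5 CPM, with a log2 fold change of 1.05 over 10 libraries (edgeR adjusted p = 0.484) and 1.76 over 8 (edgeR adjusted p = 0.0169). Usp2, a ubiquitin protease gene driven by the clock, was at 28.9 ± 9.51 and 47.5 ± 16.6 CPM, with 0.71 over 10 (edgeR adjusted p = 0.403) and 1.06 over 8 (edgeR adjusted p = 0.0255). The highest libraries of Usp2 were DMM 5 at 68.0 CPM and DMM 3 at 60.8 CPM, which were also the high libraries of Dbp and Nr1d1.

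Glucocorticoids follow a daily rhythm and induce Per1, so 13 glucocorticoid response genes, Per1 among them, were set beside the clock genes. edgeR called 0 of 13 and DESeq2 1 over 10 libraries, with 4 higher and 1 lower at an unadjusted p under 0.05 and a median log2 fold change of 0.12. Over 8 libraries edgeR called 3, all higher, with 4 higher and 2 lower at an unadjusted p under 0.05. The lower ones, named after their values were seen, were Nfkbia (-0.44, edgeR adjusted p = 0.0538) and Cdkn1a (-0.57, edgeR adjusted p = 0.0315, with a change below 1.5-fold). Zbtb16 rose by 2.12 (SE 0.27, edgeR adjusted p = 0.003), Fkbp5 by 0.89 (SE 0.22, edgeR adjusted p = 0.0447) and Klf9, named after its values were seen, by 0.62 (SE 0.15, edgeR adjusted p = 0.0419). Zbtb16 was at 2.44 to 4.18 CPM in the PBS libraries and at 4.14, 10.3, 11.8, 15.0 and 20.3 CPM in the DMM libraries, so DMM 1 alone lay in the PBS range. Over 10 libraries its log2 fold change was 1.93 (edgeR adjusted p = 0.378), and it was the gene that DESeq2 called (adjusted p = 0.000846). Fkbp5 was highest in DMM 5 at 146 CPM and in DMM 3 at 128 CPM, against 47.3 to 79.5 CPM in the PBS libraries. The mean log2 level of this list relative to the PBS mean was 0.76 in DMM 5 and 0.47 in DMM 3, and 0.33 in PBS 5, between -0.33 and 0.05 in the other libraries. Its summed level was 850.2, 1003, 1061, 969 and 1237 CPM in the PBS libraries and 893, 999.5, 1275, 938 and 1545 CPM in the DMM libraries, with Errfi1 the most abundant gene. The part of this in the values of the clock genes was not tested.

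Handling and body temperature also reach the clock. edgeR and DESeq2 each called 0 of 21 immediate early genes over 10 libraries (0 higher and 2 lower at an unadjusted p under 0.05, median log2 fold change -0.14). edgeR called 0 over 8, where 5 were lower at an unadjusted p under 0.05. Nr4a1 was at 33.7 ± 16.4 and 15.0 ± 6.74 CPM (log2 fold change -1.17, edgeR adjusted p = 0.385), and Fosb at 6.38 ± 6.09 and 3.18 ± 1.63 CPM (-1.0, edgeR adjusted p = 0.528). PBS 3 was at 17.04 CPM for Fosb, against 1.801 to 5.062 CPM in the other PBS libraries, and the log2 fold change without it was -0.22. Of 11 temperature response genes, edgeR and DESeq2 each called 0 over 10 libraries (0 higher and 3 lower at an unadjusted p under 0.05, median -0.14). edgeR called 0 of them over 8, with 2 higher and 3 lower at an unadjusted p under 0.05. Hspa1a and Hspa1b, near-identical heat shock genes whose reads may be split by the counting, were at 32.8 ± 18.1 and 19.0 ± 3.74 CPM and at 78.6 ± 30.1 and 48.9 ± 11.1 CPM (edgeR adjusted p = 0.436 and 0.397). The high libraries of Hspa1a were PBS 2 and PBS 4, at 52.3 and 52.8 CPM.

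Cell type markers differed between the libraries too. In bulk kidney, fewer cells of a type and less RNA per cell cannot be told apart. No marker of any list was at 0 in all libraries, and edgeR called 0 genes of every list over 10 libraries. DESeq2 called 1 collecting duct and 1 red blood cell gene, both higher, and 0 of the other cell type, interferon and injury lists. The 15 proximal tubule markers, led by Kap, summed to 4413, 4350, 11560, 1600 and 3200 CPM in PBS 1 to PBS 5 and to 3250, 9057, 7581, 6507 and 11100 CPM in DMM 1 to DMM 5. 2 of 15 were higher at an unadjusted p under 0.05, the median log2 fold change was 0.71, and 6 were called higher over the 8 libraries. DMM 3 and DMM 5, high for Dbp and Nr1d1, were high for these markers, with mean log2 levels of 1.34 and 1.78 relative to the PBS mean. PBS 4, high for Dbp and Per2 within its group, was the lowest of all for them, at -1.54. PBS 3, at 1.58, was among the highest for the markers, and Nr1d1 was at 0.22 and Dbp at 0.25 there.

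The 8 markers of the loop and distal tubule, led by Umod, summed to 3125, 2618, 4223, 1972 and 1726 CPM in the PBS libraries and to 2694, 4151, 4772, 1949 and 5124 CPM in the DMM libraries. 7 were tested, 0 were at an unadjusted p under 0.05 over 10 libraries and 3 were called higher over 8. The 10 collecting duct markers, led by Hsd11b2, summed to 441, 434, 666, 349 and 410.5 CPM in the PBS libraries and to 534, 592, 702, 382 and 627 CPM in the DMM libraries, with 2 of 9 tested higher at an unadjusted p under 0.05 and 2 called higher over 8. DMM 3 and DMM 5, the high libraries of Dbp and Nr1d1, were the highest of the 10 for the loop and distal tubule markers.

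The 10 macrophage markers, led by Lyz2, summed to 2340, 2439, 1876, 2177 and 2568 CPM in the PBS libraries and to 2238, 1585, 1294, 1028 and 1314 CPM in the DMM libraries, with 6 lower at an unadjusted p under 0.05 and 2 called lower over 8. The 9 T cell markers, led by Cd4, summed to 60.3, 62.9, 59.3, 51.9 and 89.5 CPM in the PBS libraries and to 57.5, 47.0, 19.2, 23.8 and 25.8 CPM in the DMM libraries, with 6 lower at an unadjusted p under 0.05 and 2 called lower over 8. DMM 3, DMM 4 and DMM 5, which were low for Arntl and high for Nr1d2, were also the lowest for both lists. With the GC and length correction, log2 CPM of Nr1d2 was 6.45 in DMM 4, 6.96 in DMM 3 and 6.86 in DMM 5. The PBS libraries were then at 6.11 to 6.34. Macrophage markers went both ways in DMM 4, where C1qa was the lowest of the 10 libraries (32.5 CPM) and Mrc1 the highest (202 CPM). The 11 fibroblast and myofibroblast markers, led by Col3a1, summed to 8227, 11580, 6455, 16610 and 11050 CPM in the PBS libraries and to 13420, 6574, 4430, 9279 and 5156 CPM in the DMM libraries, with 0 at an unadjusted p under 0.05 and 3 called lower over 8.

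The 15 interferon response genes, led by Irf7, summed to 4928, 3203, 3594, 5005 and 4842 CPM in the PBS libraries and to 3928, 627, 562, 597 and 472 CPM in the DMM libraries, with 15 of 15 lower at an unadjusted p under 0.05 and 15 called lower over 8. The 5 red blood cell genes, led by Hbb-bs, summed to 136, 228, 230, 157 and 152 CPM in the PBS libraries and to 288, 216, 593, 788 and 276 CPM in the DMM libraries, with 5 of 5 higher at an unadjusted p under 0.05 and 0 called over 8, where 5 were higher at an unadjusted p under 0.05. For 8 endothelial, 6 podocyte and 8 tubular injury genes (of 9 listed), led by Plvap, Podxl and Spp1, 0 were at an unadjusted p under 0.05 and 0 were called over 8, where 1 injury gene was lower at an unadjusted p under 0.05, with median log2 fold changes of 0.00, 0.09 and 0.11. The part of these cell types and responses in the values of the clock genes was not tested.

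Since several clock genes were correlated over the 10 libraries, their promoters were searched for the elements of the clock. RefSeq windows of 300 bases (250 before the start site, GRCm38.p6) were matched for 9 of the 10 genes, all but Per2, in 12 windows. Each motif was searched on both strands. The E-box CACGTG was in 2 of the 12 windows, of Per1 and Cry1, against 7.15% of all 32851 windows. The related CACGTT was in 3 of the 12, of Cry1, Cry2 and Nr1d1, against 4.68%. The D-box, as TTATGCAA, TTATGTAA or TTACGTAA, was in 2 of the 12, of Per1 and Per3, against 1.78%. The core of the element bound by REV-ERB and ROR receptors, as TAGGTCA or TGGGTCA, was in 0 of 12 (6.45% of all windows), and the cAMP response element TGACGTCA in 0 of 12 (1.79%). Arntl, outside the 10, was searched as well, and its window held TAGGTCA, with the first base at 31 after the start site. The matches say only that these letters lie in the windows.

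The matches with their flanks are shown for Per1, which held an E-box and a D-box, for Per3, which held the D-box at 2 places, and for Cry1 and Nr1d1, which were opposed between libraries. The sequences are from RefSeq, GRCm38.p6, written 5′ to 3′ on the strand of the gene with the motif in capitals. The first base of the motif relative to the start site was -166 for the Per1 E-box (chr11:69098766-69098805, plus strand), -24 for the Per1 D-box (chr11:69098908-69098949, plus strand) and -60 for the Cry1 E-box (chr10:85185092-85185131, minus strand). It was -28 for the Nr1d1 CACGTT element, which reads AACGTG on the strand of the gene (chr11:98775383-98775422, minus strand). The Per3 D-boxes began at -205 (chr4:151044846-151044887, minus strand) and -158 (chr4:151044799-151044840, minus strand).
Per1 E-box: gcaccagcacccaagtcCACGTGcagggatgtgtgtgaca
Per1 D-box: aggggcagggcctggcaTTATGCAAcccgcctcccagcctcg
Cry1 E-box: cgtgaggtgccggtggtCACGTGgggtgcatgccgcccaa
Nr1d1 CACGTT element: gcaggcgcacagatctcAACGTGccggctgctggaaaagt
Per3 D-box at -205: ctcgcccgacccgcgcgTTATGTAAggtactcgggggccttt
Per3 D-box at -158: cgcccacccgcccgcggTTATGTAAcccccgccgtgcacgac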

How the data were processed

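RNA of 10 UUO kidneys, 5 treated with PBS and 5 with DMM, was sequenced, and 1 table of the series was used. Per the labels' processing notes the authors used HISAT2 2.0.5, and per the study's methods reads were aligned to mm10. The counting tool, annotation release and strand setting are not given in the sources used here. The deposited raw counts per gene were the input of every test. The deposited FPKM values were scaled by the authors to gene length and library size and were used to compare levels between the clock genes. The deposited group means, a normalized signal of the authors from counts divided by size factors, were used to find which libraries they hold. Fitted on the 10 libraries, they gave PBS 3 and DMM 1 a weight of 0, and 0 of 28001 genes were off by more than a relative 0.001. The authors' columns of fold changes, p-values and adjusted p-values of DMM against PBS were not used. 0 columns of per-sample values were left out.

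Counts were tested with edgeR 4.0.16 in R 4.3.3 (TMM scaling, filterByExpr, quasi-likelihood F test, two-sided, Benjamini-Hochberg adjustment over all tested genes), without covariates. The SE was computed as the log2 fold change over the square root of F. log2 CPM had a prior count of 2. The fold changes and calls were checked on simulated counts with 200 genes changed 3-fold. Of these 80% were called over 10 libraries and 69% over 8, with 9 and 7 false calls. Smaller changes, such as those of the clock genes over 10 libraries, were not simulated. No libraries of the same group were alike within sampling noise. The labels do not say that each library is a separate animal, while the study's methods give 5 independent replicates. The p-values measure the spread between these samples. Alternatives were DESeq2 1.42.0, RLE and library size scaling, other filters, a replicate block, the 8 libraries and leaving out each library. The loess correction for GC content and length (span 0.3), the 7 libraries, the 8 libraries without a further library in turn and the count of clock genes called were added after seeing the data. The clock genes, all lists and the 8 libraries were chosen with earlier results of these data known. Named were the 10 clock genes, the other clock genes with the 4 largest fold changes plus 8 listed by name, and the 2 genes with the largest fold change of the output, glucocorticoid, immediate early and temperature lists. The most abundant gene of each marker list and the 5 genes most like Dbp and Npas2 were also named. 2 genes that this rule takes are not reported here. Symbols repeated in the table (103) did not include a clock gene.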

Additional observations from a re-analysis of the deposited data

Results flagged for a closer look

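In each group of 5 libraries, the gap between the highest or lowest library and its neighbour was divided by the range of the group for the 10 clock genes and 19 other genes, and set against Dixon's critical value of 0.71. This was exceeded in 5 of 58 groups, and chance alone does so in about 1 in 20 groups. In the DMM group, DMM 4 was far above the others for Clock (0.827) and Gsk3b (0.913). In the PBS group, PBS 4 was far below the others for Npas2 (0.774) and far above them for Ciart (0.722), and PBS 3 was far below them for Cry1 (0.754).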

How the results depend on the processing

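No clock gene was called under any alternative over 10 or 9 libraries. The number of genes called higher and lower in DMM, 0 and 0 over 10 libraries, was 12 and 33 by DESeq2, 452 and 590 over 8 libraries, 794 and 683 over 8 with the GC and length correction, and 1129 and 1281 over the 7 libraries. It ranged from 0 to 50 and from 0 to 436 when each library was left out in turn, above 0 only without DMM 1. The clock genes called were 1 over 8 libraries with the correction and 2 over the 7 libraries. The correlated pairs, 9 over 10 libraries, were 0 when centred on group means, 0 over 8 libraries, 0 over 7, and 1 to 17 when each library was left out. The cause was not tested.

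Signs turned for 3 genes. The log2 fold change of Npas2 (-0.01) ranged from -0.0886 to 0.0631 when each library was left out, above 0 without PBS 2, PBS 3, PBS 5, DMM 3 or DMM 5, and was 0.054 with the GC and length correction and 0.0793 with it over 8 libraries. That of Dbp (0.39) was -0.0181 without DMM 3 and up to 0.61 without another library. That of Nfil3 (0.01) was -0.0924 with library size alone, -0.0153 with no filter, -0.0202 with the replicate block and -0.1891 over 7 libraries. It ranged from -0.1627 to 0.1033 when each library was left out, below 0 without PBS 1, PBS 3, DMM 2 or DMM 4. The cause was not tested.

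With the replicate block 0 genes were called higher and 0 lower, the log2 fold changes of Clock, Nr1d1 and Dbp were 0.38, 0.61 and 0.12, and no call changed. Whether the replicate numbers pair the samples is not given in the sources used here. PBS and DMM libraries of the same number had correlations of -0.06, 0.079, 0.341, 0.124 and -0.223. The DMM library with the highest correlation had the same number for PBS 2 alone. These values cannot show how the samples were numbered. The median log2 fold change of all genes was 0.02 with TMM, -0.06 with library size and 0.06 with the correction.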
